A study of Mus musculus with 95 samples.

Results

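The 10 genes described here build and restrain the G1 step of the cell cycle in mouse blood stem and progenitor cells. They were taken by symbol from the 53465 gene rows of a raw count table: the D cyclins Ccnd1, Ccnd2 and Ccnd3, their kinases Cdk4 and Cdk6, cyclin E1 (Ccne1), the inhibitors Cdkn1b and Cdkn2c, and the pocket proteins Rb1 and Rbl2. All 10 were found, and all 10 passed the filter on low counts. The table held 95 bulk RNA libraries of sorted bone marrow cells from B6.SJL mice, with an age given as 8 to 12 weeks. They were made by SMART-Seq v4, a kit that copies full-length RNA from few cells, with Nextera XT. The labels name 3 populations. HSC are long-term stem cells, and HPC-1 and HPC-2 are progenitor fractions of the same Lin-Sca1+Kit+ (LSK) compartment. Each was sorted from untreated mice (steady state; 8 HSC, 8 HPC-1 and 7 HPC-2 libraries) and from mice that had received 900 cGy and 8000 LSK cells 3, 4, 5, 6, 8, 10, 13 or 16 weeks earlier (3 libraries per population and week). The labels give the CD48- CD150+ stem cell gate for all 3 populations, and do not say whether replicate libraries stem from different mice. The p-values below therefore measure the spread between these samples, which may be technical.

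In G1, mitogen signals raise the D cyclins, which bind Cdk4 or Cdk6 and start the phosphorylation of the pocket proteins. Phosphorylated pocket proteins release E2F factors, which switch on cyclin E and the genes of DNA replication, and cyclin E with Cdk2 completes the step. Inhibitors of the INK4 family bind Cdk4 and Cdk6, and those of the CIP/KIP family bind cyclin and kinase complexes. In adult marrow most stem cells rest outside the cycle, Cdk6 is known to influence how readily they leave rest, and several of these proteins are controlled after transcription, which RNA does not show.

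Total counts per library ran from 3551908 to 8492759 (median 5628592), and genes detected from 3827 to 15697 (median 12943). Fewer than 10000 genes were detected in 12 libraries: 3 of steady-state HSC, 2 of HSC at weeks 10 to 16, 4 of steady-state HPC-2 and 3 of HPC-2 at weeks 10 to 16. The counts of 6 pairs of differently labelled libraries were almost identical (chi-square per degree of freedom up to 4.50, against 15.1 for the next pair), and 4 of these pairs joined different populations. One joined replicate 1 of steady-state HSC and replicate 1 of HPC-2 at 13 weeks, where Ccnd3 was at 303 and 329 CPM (counts scaled to library size), Ccne1 at 157 and 162 CPM, and Cdk6 at 235 CPM in both. By stem cell markers the labels of HSC and HPC-1 were apart: the summed CPM of 10 of them (Slamf1, Procr, Hlf and others) was at least 671 in every HSC library and at most 426 in every HPC-1 library. The 6 HPC-1 markers (Cd48, Flt3, Dntt, Il7r, Plac8, Satb1) nearly separated them too, at up to 1742 CPM in HSC and from 1734 in HPC-1. However, 3 HSC libraries (steady-state replicate 1 and 3 weeks replicates 1 and 3) had profiles nearer to HPC-2. Among HPC-2 libraries, steady-state replicates 5 and 7 and 8 weeks replicate 2 had profiles nearer to HPC-1. For 8 weeks replicate 2 the Spearman correlation was 0.83 with HPC-1 and 0.78 with HPC-2. In HPC-2 the stem cell marker sum ran from 110 to 1119 and overlapped with HSC, and the 6 markers taken for HPC-2 (Cd48, Slamf1, Gata1, Pf4, Itga2b, Gfi1b) overlapped between all 3 populations. Calls of the 10 genes that were lost without the libraries with few genes or with near-identical counts are given with and without them.

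Cdk4 was the most abundant of the 10 genes per kilobase of exon in all 3 populations, with a median of 248 CPM per kilobase in HSC, 323 in HPC-1 and 268 in HPC-2. Ccnd2 came next, at 38.0, 26.0 and 29.0 CPM per kilobase. Cdk4 and Ccnd2 did not overlap in HSC (lowest Cdk4 145, highest Ccnd2 58.0 CPM per kilobase) or in HPC-1 (186 and 43.7). In HPC-2 they overlapped through steady-state replicate 1 (3827 genes detected), which had 34 reads of Cdk4. Ccnd3 and Cdk6 followed, in the order Ccnd3 (12.2) then Cdk6 (8.04 CPM per kilobase) in HSC and Cdk6 (14.1 and 19.3) then Ccnd3 (7.88 and 11.3) in HPC-1 and HPC-2. The medians of Cdkn2c, Rb1, Rbl2, Ccnd1, Ccne1 and Cdkn1b lay between 0.925 and 8.87 CPM per kilobase, and their ranges overlapped with those of their neighbours in every population. Ccnd2, Ccnd3 and Cdk4 had counts in every library, and Cdk6 did too, with a single read in HSC 13 weeks replicate 2 (6628 genes detected). The other 6 were at 0 in some libraries: Ccne1 in 25 of 95, Ccnd1 in 17, Cdkn1b in 13, Cdkn2c and Rbl2 in 10 each, and Rb1 in 9.

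**Figure D1:**
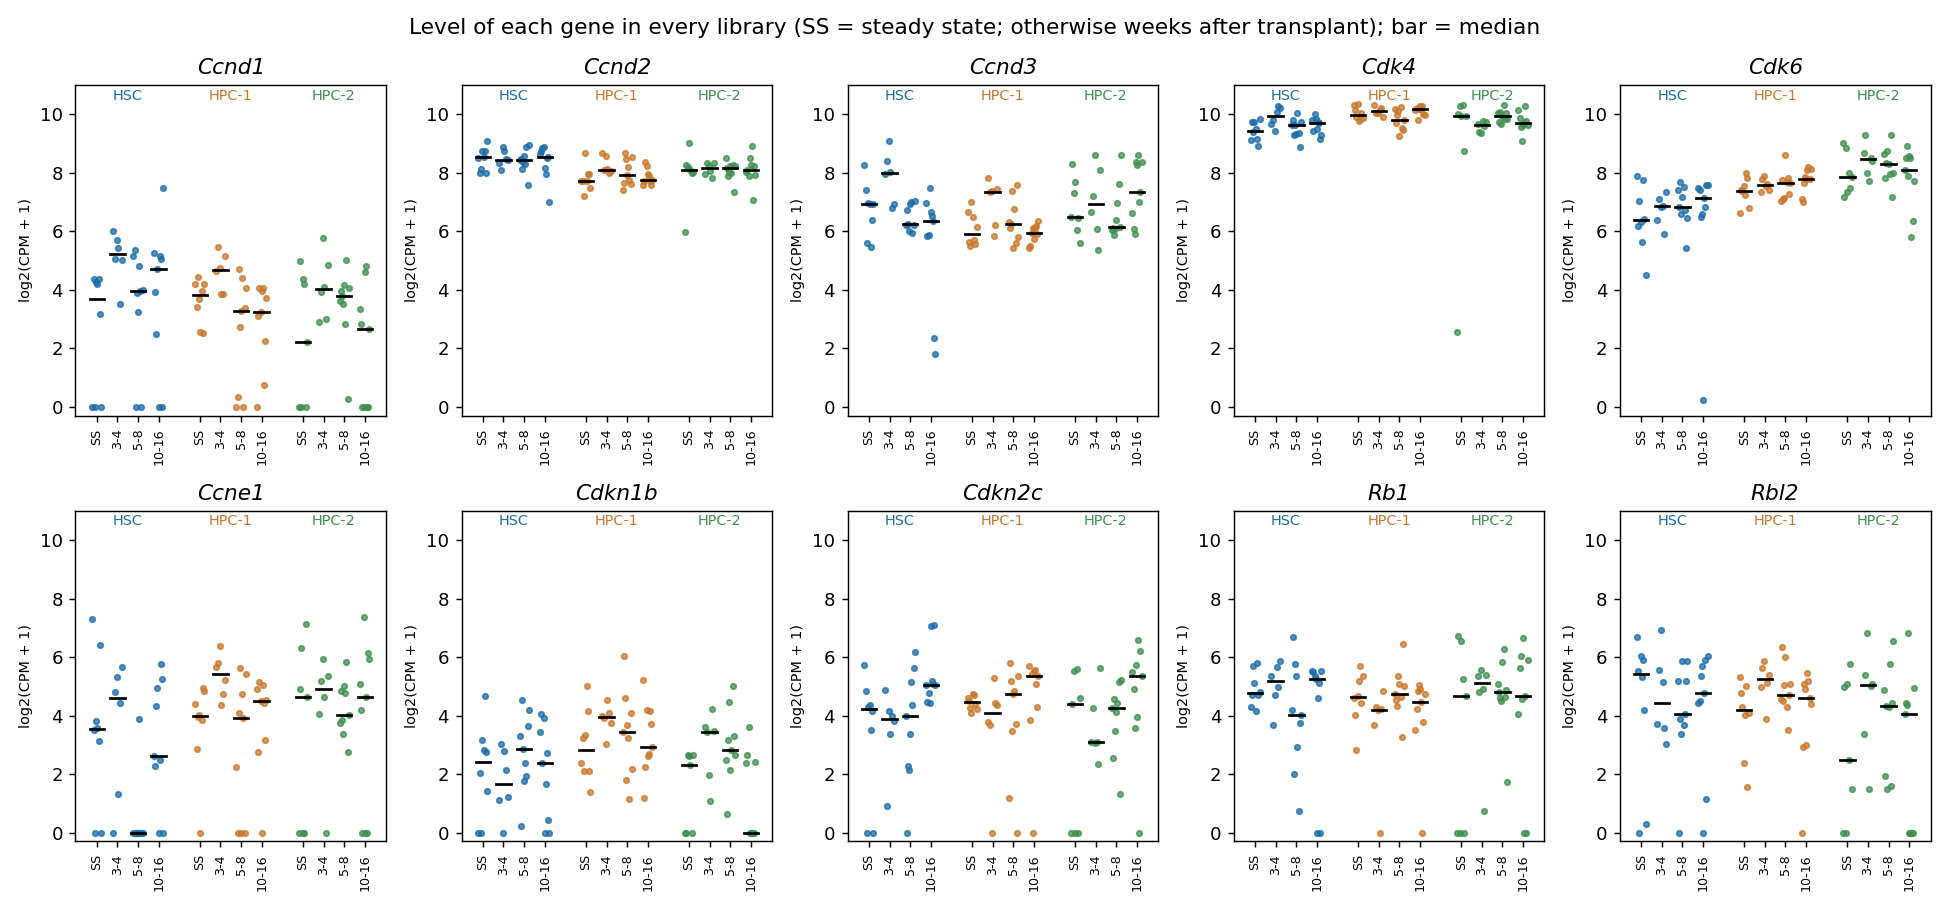
Level of each of the 10 genes in every library, as log2(CPM + 1) on the vertical axis, by population and by steady state or weeks after transplant; each point is a library and each bar a group median. Ccnd3 spreads widely within some groups (43.1 to 303 CPM in steady-state HSC), and Ccne1, Ccnd1 and Cdkn1b reach 0 in many libraries.

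Among the D cyclins, which differ mainly in where they are expressed, Ccnd2 took the largest median share of the 3 genes' CPM per kilobase in every group of weeks (49.6% to 74.4%). Its share was lowest in HSC at weeks 3 to 4 (49.6%) and in HPC-2 at weeks 10 to 16 (50.6%), where that of Ccnd3 was highest (36.2% and 43.7%). Ccnd1 held a median share of at most 9.95% in any group. Its highest level, 177 CPM, was in HSC 16 weeks replicate 3 (8873 genes detected), where it took 73.0% of the D cyclin signal and Ccnd3 had 10 reads. Of the kinases, Cdk4 took a median of 90.9% to 97.2% of the pair's CPM per kilobase in the 12 groups.

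After transplant, HSC had less Cdk6 than both progenitor populations. Over the 24 libraries each, Cdk6 ran from 0.172 to 207 CPM in HSC (median 115), from 128 to 388 in HPC-1 (median 201) and from 55.0 to 627 in HPC-2 (median 316). The means were 124 ± 51.6 CPM in HSC, 206 ± 61.0 in HPC-1 and 316 ± 141 in HPC-2 (SD, n = 24 each). All HSC libraries lay under the HPC-2 median and 21 of 24 HPC-2 libraries lay above the highest HSC library, although the ranges overlapped. HSC were lower than HPC-2 by a log2 difference of -1.38 (SE 0.23, 95% interval -1.84 to -0.92; edgeR quasi-likelihood test, adjusted p = 1.43e-05). Cdk6 alone of the 10 genes was called in that comparison, where 10.4% of all genes tested were called. The call held under each of the 14 alternatives run and without any single library (largest adjusted p 3.53e-05 in the latter). Markers of other cells differed too: 5 mature myeloid genes (S100a8, S100a9, Lyz2, C1qa, C1qb), all with counts, summed to medians of 1061 to 2907 CPM in the 3 groups of weeks of transplanted HSC (libraries 483 to 7788) and 352 to 895 CPM in those of HPC-2 (libraries 195 to 6101). Their part in the Cdk6 difference was not tested. In bulk RNA, fewer cells that express a gene and less RNA per cell cannot be told apart, here and in the comparisons that follow.

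HSC also differed from HPC-1 after transplant in the genes of the D cyclin kinases, and 3 of 10 genes were called, against 9.35% of all genes tested. Cdk6 was lower in HSC (log2 difference -0.76, SE 0.23, adjusted p = 0.0196), with 23 of 24 HSC libraries under the HPC-1 median. Cdk4 ran from 472 to 1250 CPM in HSC (median 817) and from 605 to 1283 in HPC-1 (median 1078). In 22 of 24 HSC libraries it lay under the HPC-1 median, with wide overlap of the ranges. The Cdk4 difference was -0.38 (SE 0.09, adjusted p = 0.00244). Both kinases kept the call without any single library and lost it without the 3-week libraries (Cdk4 -0.29, adjusted p = 0.0515; Cdk6 -0.69, adjusted p = 0.0919). Ccnd2 went the other way. It ran from 128 to 494 CPM in HSC (median 353) and from 170 to 411 in HPC-1 (median 252), and 21 of 24 HSC libraries lay above the HPC-1 median (log2 difference 0.37, SE 0.12, adjusted p = 0.0365). The Ccnd2 call was lost with DESeq2 size factors in edgeR (0.27, adjusted p = 0.397), with DESeq2 (0.27, adjusted p = 0.394), without the HSC libraries nearer to HPC-2 (0.36, adjusted p = 0.0551) and without any of 13 single libraries. That scaling moves the median of all genes in this comparison from -0.07 to -0.16. Markers of other cells moved with this comparison: 5 granulocyte and monocyte genes (Mpo, Elane, Prtn3, Ms4a3, Ctsg) summed to group medians of 274 to 563 CPM in transplanted HSC and 1655 to 2369 in HPC-1. The 3 mast cell genes (Cpa3, Mcpt8, Gzmb) had medians of 5.31 to 40.4 CPM in HSC and 336 to 718 in HPC-1, and the mature myeloid genes went the other way, with 643 to 1004 CPM in HPC-1. Their part in the kinase and cyclin differences was not tested.

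**Figure D2:**
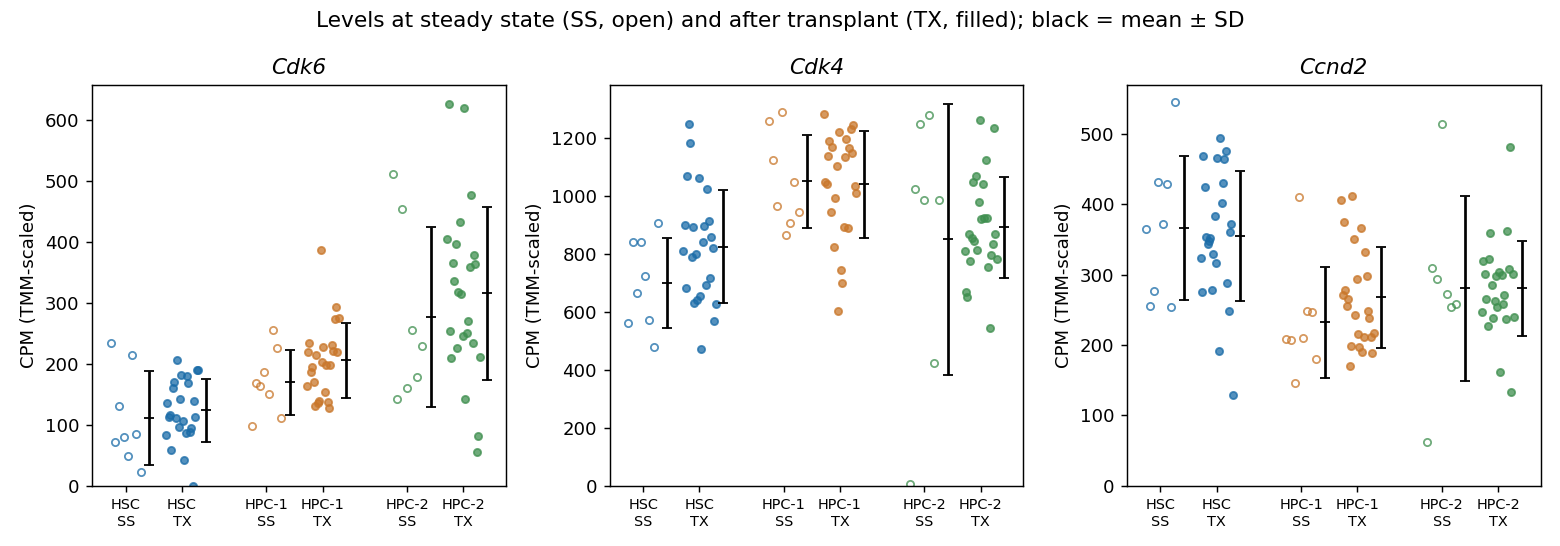
CPM of Cdk6, Cdk4 and Ccnd2 in each library of HSC, HPC-1 and HPC-2, with open points for steady state and filled points for after transplant; black marks are means ± SD. Mean Cdk6 after transplant is 124 CPM in HSC, 206 in HPC-1 and 316 in HPC-2, whereas Ccnd2 has its highest median in HSC.

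The sequences before the starts of both kinase genes are shown because both were lower in HSC than in HPC-1. RefSeq windows were found for 7 of the 10 genes (GRCm38.p6). Each sequence is the 250 bases before a RefSeq start, 5′ to 3′ on the strand of the gene, with the palindromic E-box CACGTG, the letters bound by Myc and related factors, in capitals. Cdk4 is read from chr10:127063285-127063534, plus strand, and Cdk6 from chr5:3343643-3343892, plus strand.
Cdk4: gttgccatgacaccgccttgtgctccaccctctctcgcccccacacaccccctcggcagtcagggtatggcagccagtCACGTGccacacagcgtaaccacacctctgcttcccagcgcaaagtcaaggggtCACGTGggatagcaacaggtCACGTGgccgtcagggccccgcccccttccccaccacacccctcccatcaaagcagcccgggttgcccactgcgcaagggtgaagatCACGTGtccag
Cdk6: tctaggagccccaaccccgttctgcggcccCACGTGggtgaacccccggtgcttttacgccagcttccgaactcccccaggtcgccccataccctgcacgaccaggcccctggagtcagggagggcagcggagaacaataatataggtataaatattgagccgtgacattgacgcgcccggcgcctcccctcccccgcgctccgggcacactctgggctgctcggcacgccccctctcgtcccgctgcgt
The Cdk4 window held 4 E-boxes, at 172, 118, 98 and 11 bases before the start, and the Cdk6 window held 1, at 220 bases before it. The windows found for Ccnd3, Ccne1, Cdkn1b, Cdkn2c and Rbl2 held none, and Ccnd1, Ccnd2 and Rb1 had no window to examine. Of 32851 promoter windows of the same length, 6.02% held at least 1 E-box and 0.0213% (7 windows) held at least 4. Myc itself, the best known E-box factor, ran from 5.51 to 574 CPM in transplanted HSC (median 201) and from 118 to 1087 in HPC-1 (median 415). It was lower in HSC than in HPC-1 (log2 difference -1.04, SE 0.26, adjusted p = 0.00324). Its relative Mycn was higher in HSC, with medians of 65.4 and 9.27 CPM (2.38, SE 0.53, adjusted p = 0.000674). Between HSC and HPC-2 after transplant, where Cdk6 differed by -1.38, edgeR called neither Myc nor Mycn. At steady state edgeR called Myc lower in HSC than in HPC-2 (-1.51, SE 0.44, adjusted p = 0.0288), a call kept in 8 of 14 alternatives. Matches in these windows are letters, not measured binding. No other motif was searched, and a part of Myc in the kinase levels was not tested.

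Between the progenitor populations after transplant, 1 of 10 genes was called, against 7.23% of all genes. Ccnd3 was lower in HPC-1, at 42.4 to 226 CPM (median 69.6), than in HPC-2, at 40.5 to 391 CPM (median 112). The log2 difference was -0.91 (SE 0.28, adjusted p = 0.0268), and 7 of 24 HPC-2 libraries lay above the highest HPC-1 library. It lost the call without the near-identical libraries (-0.91, adjusted p = 0.0593), without the 3-week libraries (-0.74, adjusted p = 0.148), with limma voom (-0.33, adjusted p = 0.366), and without HPC-2 3 weeks replicate 3 (-0.74, adjusted p = 0.0889) or HPC-2 8 weeks replicate 3 (-0.83, adjusted p = 0.0528). The Ccnd3 call was also lost with replicate blocks by description number (-0.67, adjusted p = 0.133). Cdk6 lay lower in HPC-1 by -0.62 (SE 0.23), which missed the threshold (adjusted p = 0.0887). Cdk6 was called with DESeq2, without the libraries with few genes, and without these and the near-identical libraries together. It was also called with detected genes as covariate and with the compared populations alone. It was not called without the near-identical libraries or without the 3-week libraries.

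**Figure D3:**
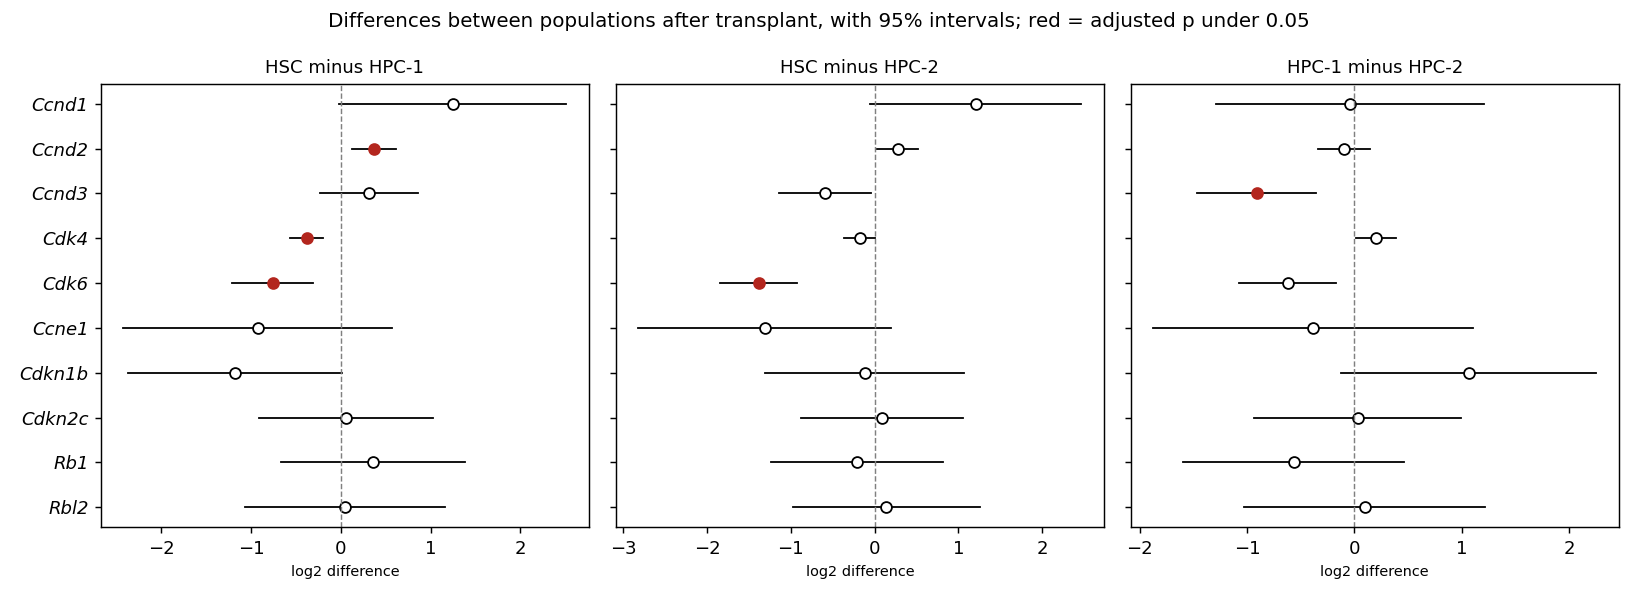
Log2 difference of each of the 10 genes between populations after transplant (HSC minus HPC-1, HSC minus HPC-2, HPC-1 minus HPC-2) with 95% intervals; red marks an adjusted p under 0.05. The intervals of Cdk6 lie below 0 in all 3 panels, and those of Ccne1, Ccnd1, Cdkn1b, Cdkn2c, Rb1 and Rbl2 are several times wider than that of Cdk4.

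For the remaining genes the population differences after transplant were bounded less tightly. Ccnd1, the D cyclin best known from epithelial tissue, had medians of 26.1 CPM in HSC, 12.8 in HPC-1 and 10.8 in HPC-2, and its difference between HSC and HPC-1 was 1.25 (95% interval -0.02 to 2.51, adjusted p = 0.261). Ccne1 had medians of 2.69, 22.1 and 23.6 CPM and was at 0 in 11, 4 and 4 libraries, with a difference of -1.31 between HSC and HPC-2 (interval -2.82 to 0.20, adjusted p = 0.295). Cdkn1b, which encodes the CIP/KIP inhibitor p27, had medians of 4.21, 11.9 and 4.94 CPM, and its difference between HSC and HPC-1 was -1.18 (interval -2.38 to 0.01, adjusted p = 0.258). Cdkn2c, which encodes the INK4 protein p18, had medians of 20.9, 23.1 and 18.1 CPM (HSC minus HPC-1 0.06, interval -0.91 to 1.03). Neither inhibitor was called higher in HSC. Rb1, with medians of 31.9, 21.6 and 27.7 CPM, and Rbl2, which encodes the pocket protein p130 of resting cells, with 23.8, 29.9 and 19.5 CPM, had intervals that reached 1 or more in at least one direction in each of the 3 comparisons.

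At steady state the kinases stood in the same order, with fewer libraries and less certainty. Cdk6 ran from 21.8 to 235 CPM in HSC (median 82.0), from 98.5 to 256 in HPC-1 (median 166) and from 143 to 512 in HPC-2 (median 230). In 6 of 8 HSC libraries it lay under the lowest HPC-2 library. The log2 difference between HSC and HPC-2 was -1.28 (SE 0.43, adjusted p = 0.0490), the only call among the 10 genes, where 8.36% of all genes were called. Without the near-identical libraries the difference was -1.64 (adjusted p = 0.0180). The call was lost without the libraries with few genes (-1.10, adjusted p = 0.265), which left HPC-2 replicates 2, 5 and 7, and replicates 5 and 7 nearly matched HPC-1 libraries and had profiles nearer to HPC-1 than to HPC-2. Without both kinds of libraries 1 HPC-2 library was left, whose spread is taken from the other groups (-0.57, adjusted p = 0.685), and nothing is read from that fit. It was lost in 55 of 95 fits that left out a single library (adjusted p 0.0226 to 0.110). Between HSC and HPC-1, Cdk4 did not overlap but for 1 library on each side: it ran from 478 to 906 CPM in HSC (median 695) and from 867 to 1289 in HPC-1 (median 1009). The Cdk4 difference was -0.60 (SE 0.28, unadjusted p = 0.0331, adjusted p = 0.369) and that of Ccnd2 was 0.64 (SE 0.25, unadjusted p = 0.0111, adjusted p = 0.180). By edgeR 0 of 10 genes were called there, against 2.07% of all genes, and 2 had an unadjusted p under 0.05 (10.7% of all genes). DESeq2 called 0, and limma voom called 3 (Ccnd2, Cdk4, Cdk6). Without the libraries with few genes edgeR called 1 (Cdk4), as it did with the compared populations alone. With the number of detected genes as covariate it called 1 (Ccnd2). Comparing HPC-1 with HPC-2 at steady state, edgeR called 0 of 10 (0.571% of all genes), and 0 had an unadjusted p under 0.05 (20.2% of all genes). DESeq2 called 1 (Cdk6) and limma voom called 0.

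None of the 10 genes was called after transplant against steady state in any population. Libraries were grouped into weeks 3 to 4, 5 to 8 and 10 to 16 (6, 9 and 9 per population), and each group was set against the same steady-state libraries of its population, which the comparisons therefore share. Of 90 tests with edgeR, 0 passed and 2 had an unadjusted p under 0.05. Of all genes, 3.86% to 18.5% had an unadjusted p under 0.05 in these 9 comparisons. Few genes of any kind were called: 0.0204%, 0.00679% and 0% of all genes in HSC in the order of the weeks, 0%, 0.00679% and 0% in HPC-1, and 0%, 0% and 4.66% in HPC-2. The intervals bound some genes well and others hardly. Over the 9 comparisons Ccnd2 differed by -0.07 to 0.42, with intervals reaching from -0.55 to 0.95, and Cdk4 by -0.21 to 0.49, with intervals from -0.74 to 1.07. Those of Cdk6 reached from -0.88 to 1.39. For Ccnd1, Cdkn1b, Cdkn2c, Rb1 and Rbl2 the standard errors were 0.93 to 1.30, and intervals reached beyond 2 on the log2 scale in at least one direction.

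Ccne1 in HSC at weeks 5 to 8 had the largest difference of these 90. At steady state it was at 157, 10.5, 0, 13.0, 10.9, 7.84, 84.9 and 0 CPM in replicates 1 to 8. At weeks 5 to 8 it was at 0 in 8 of 9 libraries, and at 13.9 CPM (99 reads) in HSC 6 weeks replicate 3. The other weeks were not empty: 5 of 6 HSC libraries at weeks 3 to 4 and 7 of 9 at weeks 10 to 16 had counts, and all 9 HPC-2 libraries at weeks 5 to 8 did. The log2 difference was -4.46 (SE 1.43, interval -7.30 to -1.61, unadjusted p = 0.00249, adjusted p = 0.145). DESeq2 (-4.95, adjusted p = 0.00922) and limma voom (-6.14, adjusted p = 0.00193) called it, and edgeR did too without HSC 6 weeks replicate 3 (-10.67, adjusted p = 0.00338). Without the near-identical libraries it was -3.51 (adjusted p = 0.312), and without the libraries with few genes -3.97 (adjusted p = 0.105). Such fitted values against libraries at 0 depend on the prior count and bound nothing. The highest steady-state value, 157 CPM, came from the library that nearly matched an HPC-2 library.

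**Figure D4:**
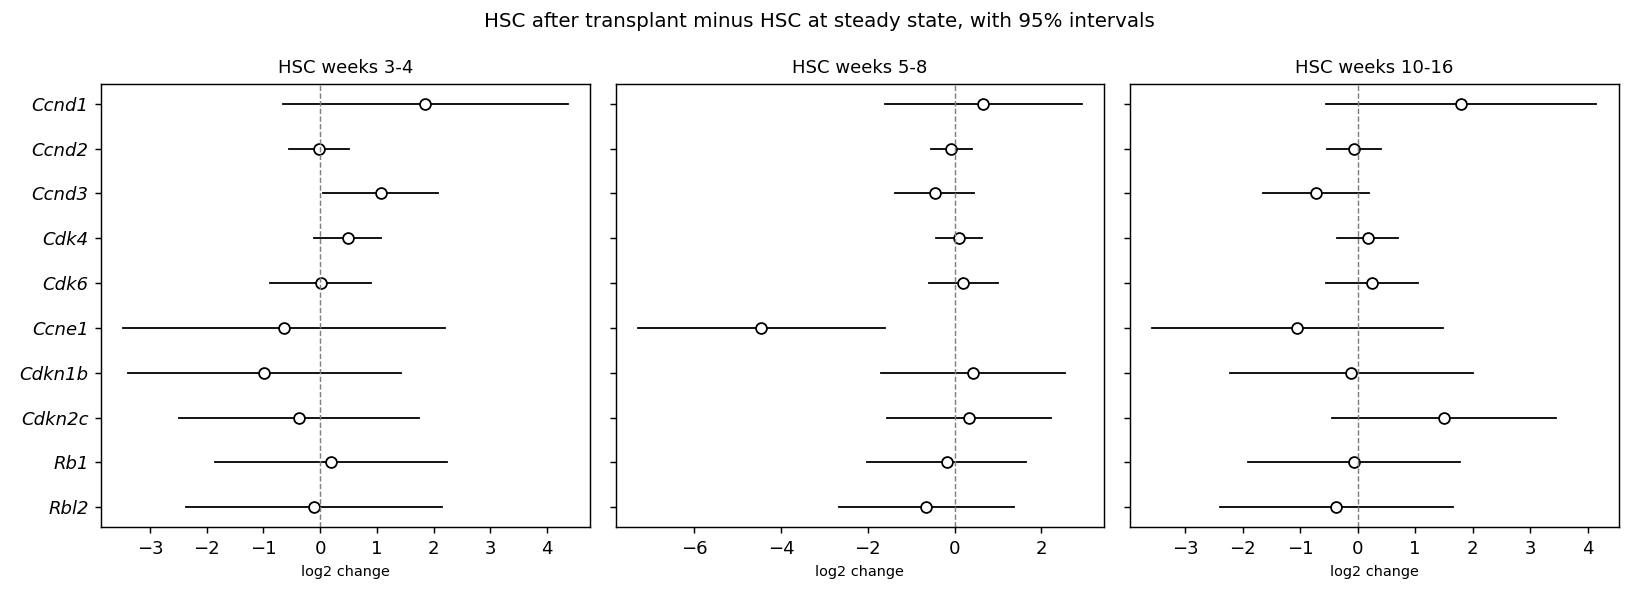
Log2 difference of each of the 10 genes in HSC at weeks 3 to 4, 5 to 8 and 10 to 16 after transplant minus steady state, with 95% intervals. The intervals of Ccnd2 and Cdk4 include 0 in all 3 groups of weeks, with that of Cdk4 reaching 1.07 at weeks 3 to 4, the interval of Ccnd3 lies above 0 at weeks 3 to 4 (0.06 to 2.08), and Ccne1 lies furthest below 0 at weeks 5 to 8.

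Ccnd3, the D cyclin that also serves lymphoid and erythroid precursors, was highest in HSC soon after transplant and fell over the weeks. HSC at 3 weeks had 249, 334 and 538 CPM, and at 4 weeks 258, 110 and 121 CPM. At steady state the 8 libraries ran from 43.1 to 303 CPM (median 121), so that only 2 of the 3 libraries at 3 weeks lay above all of them. From week 5 to week 13 the 15 libraries ran from 56.0 to 177 CPM. At 16 weeks the values were 79.8, 4.10 and 2.50 CPM, the last 2 from libraries with 10113 and 8873 detected genes and 24 and 10 reads of Ccnd3. The log2 difference of weeks 3 to 4 from steady state was 1.07 (SE 0.51, interval 0.06 to 2.08, unadjusted p = 0.0388, adjusted p = 0.370). In HPC-1 it was 0.99 (SE 0.51, adjusted p = 1).

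Per doubling of the weeks after transplant, Ccnd3 in HSC fell by 0.97 on the log2 scale (SE 0.23, interval -1.43 to -0.51, adjusted p = 0.0150), the only one of the 10 genes called, where 1.63% of all genes were called. In HPC-2 the slope was 0.31 (SE 0.22, adjusted p = 0.581). There, the values at 13 weeks were 329, 304 and 388 CPM and those at 16 weeks 128, 159 and 331 CPM, against 99.6, 146 and 384 CPM at 3 weeks. The first of the 13-week and the first 2 of the 16-week libraries had few genes. The difference between the slopes of HSC and HPC-2 was itself called (-1.28, SE 0.32, adjusted p = 0.0193), 1 of 10 genes against 3.29% of all. The call of the HSC slope was lost without the 3-week libraries (-0.59, adjusted p = 0.547), without HSC 3 weeks replicate 3 (-0.80, adjusted p = 0.0966), and without the 3 HSC libraries whose profile was nearer to HPC-2 (-0.76, adjusted p = 0.159), which include 2 of the 3-week libraries. It was also lost with HSC fitted alone (-0.97, adjusted p = 0.251) and with genes of at least 10 CPM (-0.94, adjusted p = 0.0554). The difference in slopes missed the threshold without the libraries with few genes (-1.21, adjusted p = 0.0718), without the near-identical libraries (-1.18, adjusted p = 0.0550), and without HSC 3 weeks replicate 3 (-1.11, adjusted p = 0.0672). It also missed it with limma voom (-1.27, adjusted p = 0.0642) and with the compared populations alone (-1.28, adjusted p = 0.0590). The same held without the HSC libraries nearer to HPC-2 (-1.07, adjusted p = 0.0978) and without the 3-week libraries (-1.34, adjusted p = 0.0592). In HPC-1 the Ccnd3 slope was -0.55 (SE 0.23, adjusted p = 0.929).

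**Figure D5:**
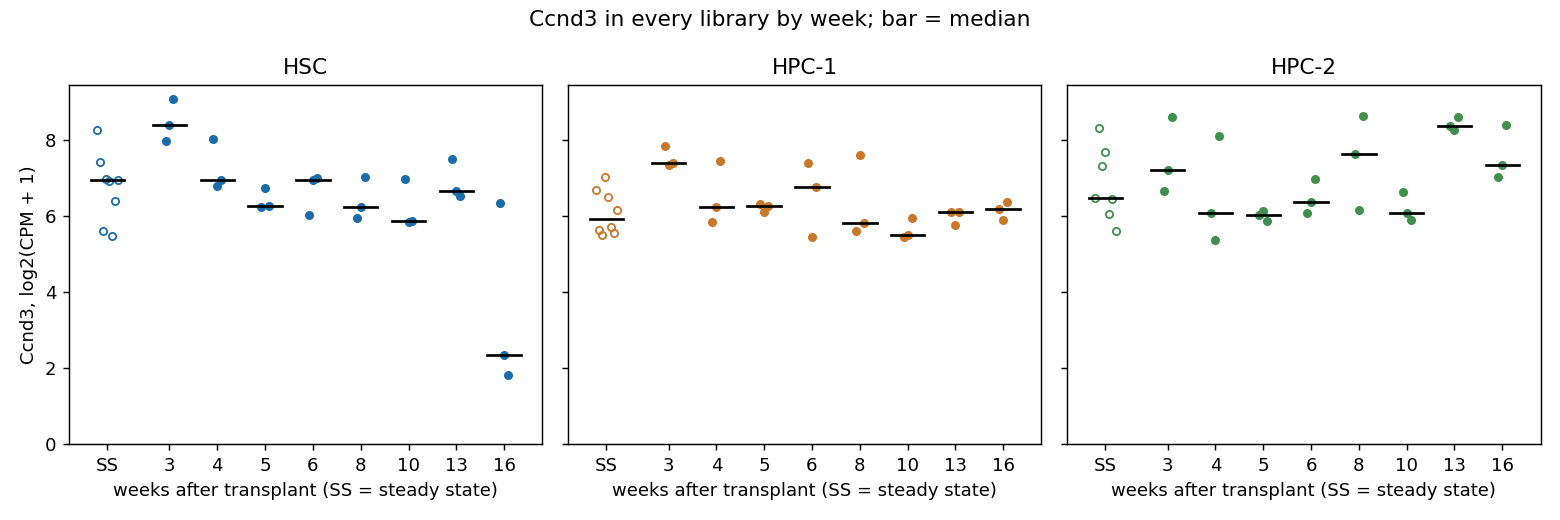
Ccnd3 in every library as log2(CPM + 1) at steady state and by week after transplant, one panel per population. In HSC the 3 libraries at 3 weeks (249 to 538 CPM) stand highest and 2 of the 16-week libraries (4.10 and 2.50 CPM) lowest, while HPC-2 has its highest group of 3 at 13 weeks (304 to 388 CPM).

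Marker levels also differed between these groups of weeks. The 10 stem cell markers summed to a median of 956 CPM in HSC at weeks 3 to 4 (775 to 1085) against 1837 at steady state (671 to 2320), 1254 at weeks 5 to 8 and 1249 at weeks 10 to 16. The 6 HPC-2 markers, which overlapped between all 3 populations, summed to medians of 745 CPM at steady state and 1857, 2044 and 1421 CPM in the order of the weeks. In HSC 4 erythroid genes (Klf1, Hbb-bt, Hba-a1, Epor) had medians of 62.7 CPM at steady state (0 to 1033), 140 at weeks 3 to 4 (129 to 308), then 63.6 and 51.2. In the same order these were 34.0, 73.7, 26.0 and 30.1 CPM in HPC-1 and 85.5, 325, 195 and 179 in HPC-2. The part of these markers in the Ccnd3 result was not tested. No other gene of the 10 had a called slope. In HSC the slope of Cdkn2c was 1.05 (SE 0.42, adjusted p = 0.212), with medians of 13.9 CPM at weeks 3 to 4, 15.0 at weeks 5 to 8 and 32.0 at weeks 10 to 16. The slope of Cdk4 was -0.18 (SE 0.08, adjusted p = 0.300). In HPC-1 edgeR called 0 of 10 slopes (0.199% of all genes), and DESeq2 and limma voom called 0. There 2 had an unadjusted p under 0.05 (Ccnd2 and Ccnd3; 3.63% of all genes). In HPC-2 edgeR called 0 of 10 (1.70% of all genes), with 0 at an unadjusted p under 0.05 (13.8% of all genes) and 0 by the other tools. Between the slopes of HSC and HPC-1, 0 of 10 were called (0.32% of all genes), also by the other tools, with 0 at an unadjusted p under 0.05 (5.28% of all genes). The early change from steady state, tested as HSC against each progenitor, was called for 0 of 10 genes against HPC-1 (0% of all genes) and for 0 of 10 against HPC-2 (3% of all genes), with 0 at an unadjusted p under 0.05 in either. DESeq2 called 0 in both, and limma voom called 1 (Cdk4) against HPC-2.

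Downstream of the G1 step, many genes of DNA replication and division were lower in transplanted HSC when set against HPC-2, and fewer when set against HPC-1. Of a list of 15 E2F targets and proliferation genes, 10 had a called difference, each with the lower level in HSC, when HSC were set against HPC-2 (4.8% of all genes were called lower). The list's median log2 difference was -1.04 against -0.01 over all genes tested. Between 7 (limma voom) and 13 (DESeq2) of the 15 were called lower under the alternatives, and 10 without the libraries with few genes. Top2a, a topoisomerase of dividing cells, had medians of 129 CPM in HSC and 326 in HPC-2 (-1.43, SE 0.25, adjusted p = 3.15e-05). Mcm5, a part of the replicative helicase, had 52.2 and 113 CPM (-1.95, SE 0.35, adjusted p = 4.90e-05). Mki67, the gene of the proliferation antigen Ki-67, had 92.4 and 274 CPM (-1.37, SE 0.32, adjusted p = 0.00208). These 3 genes kept the call under each of 14 alternatives. Against HPC-1, 4 of 15 were lower and 0 higher (Mcm5, Cdt1, Mcm6, Mcm3), with a median of -0.66 against -0.07 over all genes (4.91% called lower). That count ran from 1 (genes of at least 10 CPM) to 9 (limma voom) under the alternatives and was 2 without the libraries with few genes or the near-identical ones. Mcm5 kept the call in 14 of 14 alternatives, Cdt1 in 12, Mcm6 in 7 and Mcm3 in 6. Between HPC-1 and HPC-2, 2 of 15 were lower in HPC-1 (Top2a and Mki67; 2.52% of all genes were called lower), and 0 without the 3-week libraries. At steady state, HSC had the lower level of 4 of 15 when set against HPC-2 (Tyms, Mcm7, Mcm4, Mcm6; 0 without the libraries with few genes and 8 with DESeq2) and of 1 when set against HPC-1 (Tyms). Of all genes, 1.72% and 1.24% were called lower in these comparisons. Some members of this list stand for S phase and mitosis and not only for G1.

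Over the weeks 2 of these 15 genes fell in HSC, where 1.04% of all genes were called with a slope below 0. Mcm5 (-1.21 per doubling of the weeks, SE 0.31, adjusted p = 0.0239) and Rrm2, a subunit of ribonucleotide reductase (-0.89, SE 0.25, adjusted p = 0.0444), passed the test. Each kept the call in 6 of 13 alternatives, and the count was 0 without the libraries with few genes, without the 3-week libraries, without the HSC libraries nearer to HPC-2, with HSC fitted alone, and with genes of at least 10 CPM. The slopes themselves stayed between -1.32 and -0.85 for Mcm5 and between -1.23 and -0.79 for Rrm2 in the alternatives. The median slope of the 15 was -0.73 against -0.06 over all genes, and 0 of 15 slopes were above 0. Against the slope of HPC-2, 4 of 15 were lower (Mcm3, Mcm5, Rrm1, Rrm2), where 0.824% of all genes were called lower. The count was 0 without the libraries with few genes, and over all 14 alternatives the differences of these 4 genes stayed between -1.85 and -0.86. At weeks 3 to 4 against steady state in HSC, 15 of 15 differences were above 0, with a median of 0.99 against -0.11 over all genes. Of the 15, edgeR called 0 (0.0204% of all genes), and 7 had an unadjusted p under 0.05 (11.7% of all genes). DESeq2 called 1 and limma voom 2. In HPC-1 13 of 15 were above 0 (median 0.97 against 0.00). There edgeR and DESeq2 called 0, 4 had an unadjusted p under 0.05 (4.89% of all genes), and limma voom called 3. In HPC-2 6 of 15 were above 0 (median -0.16 against 0.31 over all genes), and edgeR called 0. Tested as HSC against HPC-2, the early change was called for 0 of the 15, where 3% of all genes were called. Of the 7 steady-state HPC-2 libraries, 4 had few genes and 2 had near-identical counts.

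Of the 5 other inhibitors listed, 3 passed the filter. Cdkn1c, which encodes the CIP/KIP protein p57, had medians of 9.10 CPM in transplanted HSC, 0.296 in HPC-1 and 0 in HPC-2, where 16 of 24 libraries were at 0. It was higher in HSC than in HPC-1 (2.71, SE 0.87, adjusted p = 0.0317) and HPC-2 (2.96, SE 0.88, adjusted p = 0.0171), and kept these calls in 12 and 11 of 13 alternatives. Cdkn2d, the INK4 gene of p19, had medians of 152, 72.5 and 160 CPM. It was lower in HPC-1 than in HSC (HSC minus HPC-1 1.01, SE 0.24, adjusted p = 0.00183) and than in HPC-2 (HPC-1 minus HPC-2 -1.16, SE 0.24, adjusted p = 0.000473). Cdkn1a, the p53 target p21, was lower in HSC than in HPC-1, with medians of 2.12 and 15.3 CPM (-2.24, SE 0.73, adjusted p = 0.0347), a call kept in 9 of 14 alternatives. Cdkn2a had a count in 1 of 95 libraries and Cdkn2b in 0.

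The other lists held fewer calls. Of 7 further G1 cyclins and kinases, edgeR called 0 in each of the 3 comparisons after transplant. At an unadjusted p under 0.05 there were 0 between HSC and HPC-1, 3 between HSC and HPC-2 and 1 between the progenitors. Of all genes, 9.35%, 10.4% and 7.23% were called in these comparisons, and 19.8%, 23.5% and 17.1% had an unadjusted p under 0.05. DESeq2 called 0, 2 and 0 in that order, and limma voom 2, 1 and 0. Ccne2, the second cyclin E, had medians of 139, 123 and 151 CPM in HSC, HPC-1 and HPC-2 (HSC minus HPC-1 -0.12, SE 0.32, adjusted p = 0.900), and Cdk2, its kinase, had 98.6, 152 and 120 CPM (-0.57, SE 0.31, adjusted p = 0.299). Of 17 other pocket protein, E2F and DREAM genes, HSC had the lower level of 2 when set against HPC-1 (E2f2 and Rbbp4; 0 to 3 under the alternatives, 0 without the 3-week libraries) and of 3 when set against HPC-2 (E2f2, E2f8, Rbbp4; 1 to 6). Of all genes 4.91% and 4.8% were called lower there. Over the weeks 3 of the 17 fell in HSC, as did 1.04% of all genes: E2f2 by 3.52 per doubling of the weeks on the log2 scale (SE 0.85, adjusted p = 0.0161), Rbbp4, a histone-binding subunit of the DREAM complex, by 0.91 (SE 0.23, adjusted p = 0.0208), and Tfdp1, the dimer partner of E2F proteins, by 0.55 (SE 0.15, adjusted p = 0.0428). They kept these calls in 10 of 11, 9 of 13 and 6 of 13 alternatives. E2f2, an activating E2F, was scarce, with medians of 0, 1.72 and 3.94 CPM in the 3 populations. Rbl1, the third pocket protein gene, had medians of 62.3, 83.5 and 88.7 CPM (HSC minus HPC-2 -0.60, SE 0.27, adjusted p = 0.165). Of 9 regulators of p27 and D cyclins, Myc and Mycn were called between HSC and HPC-1 after transplant (9.35% of all genes), with the values above. Between HSC and HPC-2 edgeR called 0 (10.4% of all genes), and 4 had an unadjusted p under 0.05 (23.5% of all genes). DESeq2 called 1 there and limma voom 2.

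The genes most like each of the 10 were found over the means of the 27 groups of population and week, by Pearson r of log2(CPM + 1) over the 8325 genes whose mean CPM reached 10. Groups share library depth and, for the near-identical pairs, counts, and no p is given. Cdk6 was most like Calm3, a calmodulin gene (r = 0.88), Ckap5, a microtubule polymerase gene (0.85), and Pola1, the catalytic subunit of DNA polymerase alpha (0.81). Ccnd3 was most like Atp5a1 (0.85), Cyb5r3 (0.81) and Prkar1a (0.78), and Ccnd2 most like Cenpt (0.81), Rbpms2 (0.78) and Socs2 (0.77). Cdk4 was most like Adh5 (0.84), Cops4 (0.83) and Uchl5 (0.83). Among the 10 genes themselves, r was highest for Cdkn1b with Rbl2 (0.60) and Ccnd1 with Ccnd2 (0.52) and lowest for Ccnd3 with Cdkn2c (-0.34). Cdk4 and Cdk6 were hardly related over the groups (0.10).

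In the annotation, each gene lies on its own locus of GRCm38. Ccnd2 is on chromosome 6 (127125162 to 127152193, minus strand), Ccnd3 on chromosome 17 (47505051 to 47599691, plus), Cdk4 on chromosome 10 (127063534 to 127067920, plus) and Cdk6 on chromosome 5 (3341485 to 3531008, plus). Ccne1 is on chromosome 7 (38097984 to 38107534, minus). The kit does not mark strand, so reads from overlapping exons of a gene on the other strand cannot be told apart. Such exons overlap those of Cdk4 (Tspan31), Ccnd3 (Bysl), Ccnd1 (LTO1), Ccnd2, Cdk6, Rb1 and Rbl2, and none overlap those of Ccne1, Cdkn1b and Cdkn2c.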

How the data were processed

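RNA was measured in bulk in 95 libraries. The deposited values are raw counts per gene. The authors trimmed with Trimmomatic 0.36, aligned with HISAT2 2.0.5 to GRCm38 (mm10), used Picard and counted with featureCounts, per the submitters' processing notes; the strand setting is not given in the sources used here. Groups came from the titles. For 2 libraries titled 10k the week was taken as 10, and 1 HPC-2 library titled 3 weeks but labelled untreated was placed at 3 weeks.

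The 10 genes, the 5 pathway lists and the marker lists were chosen with earlier results of these data known. Genes were kept by the edgeR expression filter (14717 genes over all 95 libraries, 14075 over the 72 transplanted ones) and scaled by TMM. The robust edgeR quasi-likelihood F test was used, and p-values were adjusted by Benjamini-Hochberg over all genes of a comparison; a call is an adjusted p under 0.05. One fit held 12 groups of population and weeks (all 95 libraries). The other held a mean and a slope on log2 weeks per population (72 libraries) and gave the comparisons after transplant. The 22 comparisons share libraries. Log2 differences are those of the fits, and levels are TMM-scaled CPM. Per kilobase values divide by the exon length in GENCODE M21, which held 99.64% of the gene IDs.

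All 10 genes are named. From each list up to 4 called genes with the smallest p per comparison are named, with Cdkn1a, Cdkn1c, Ccne2, Cdk2 and Rbl1 in any case, and the 3 genes most alike in the 27 group means. Where all called genes of a list are counted, only these carry values. The procedure was tested on simulated data. Alternatives were another scaling (RLE), DESeq2, limma voom with sample weights, other filters, the number of detected genes as covariate, replicate blocks, the compared populations alone, and each library left out. Fits with a single library left out kept the gene filter and the dispersions estimated with that library included, so they test less than a full refit. After values were seen, 3 more were added: without the libraries with few genes and the near-identical ones together, without 3 HSC libraries nearer to HPC-2, and without the 3-week libraries. Tools were R 4.3.3, edgeR 4.0.16, limma 3.58.1, DESeq2 1.42.0, the data.table package (1.17.8), Python 3.11.15, pandas 2.3.3 and matplotlib 3.10.9.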

Additional observations from a re-analysis of the deposited data

Results flagged for a closer look

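Ccnd2 in HPC-1 steady-state replicate 4 was at 411 CPM, far above the next of the 8 libraries (248 CPM). Cdkn1b in HSC steady-state replicate 6 was at 24.7 CPM, where the next of the 8 was at 7.95 CPM. These came from 30 sets of values examined for 1 far from the rest, the 10 genes in each of the 3 steady-state groups, of which 2 were picked out. No group after transplant was examined. For normally distributed values chance picks out about 1 set in 20, and CPM near 0 need not follow that distribution. The slope of Ccnd3 over the weeks after transplant differed between HSC and HPC-2 by -1.28 on the log2 scale per doubling (SE 0.32, adjusted p = 0.0193, edgeR quasi-likelihood test), with the limits given in the report.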

How the results depend on the processing

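No alternative reversed a called difference of the 10 genes. Cdk6 between HSC and HPC-2 after transplant kept its call under each of 14 alternatives; the counts that moved by over 1.5 times in the other comparisons follow, and the cause was not tested. For weeks 5 to 8 against steady state in HSC (0 genes), DESeq2 and limma voom each called 1. For HSC against HPC-1 at steady state (0), limma voom called 3, and 1 was called without the libraries with few genes, with detected genes as covariate, with the compared populations alone, and without few-gene and near-identical libraries together. For HSC against HPC-2 at steady state (1), 0 were called without a filter, with genes of at least 10 CPM, without the libraries with few genes, with either replicate block, with the compared populations alone, without few-gene and near-identical libraries together, and without the 3-week libraries. DESeq2 called 1 between the progenitors at steady state (0). After transplant, HSC against HPC-1 (3) had 1 without the 3-week libraries, and 4 with limma voom. HSC against HPC-2 (1) had 2 with RLE scaling, 3 with DESeq2 and 2 with limma voom. HPC-1 against HPC-2 (1) had 2 with DESeq2, without the libraries with few genes, with the covariate, with the compared populations alone, and without few-gene and near-identical libraries together, and 0 without the near-identical libraries, with the block by description number and without the 3-week libraries. The HSC slope (1) had 0 with genes of at least 10 CPM, with HSC alone, without the HSC libraries nearer to HPC-2 and without the 3-week libraries. The difference in slopes between HSC and HPC-2 (1) had 2 with RLE scaling and DESeq2, and 0 with limma voom, without few-gene, near-identical or both kinds of libraries, with the compared populations alone, without the HSC libraries nearer to HPC-2 and without the 3-week libraries. Limma voom called 1 for the early change in HSC against HPC-2 (0).

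With each library left out in turn, counts ran from 0 to 1 for HSC at weeks 5 to 8, steady-state HSC against either progenitor, the HSC slope, its difference from HPC-2 and the early change against HPC-2, from 2 to 3 for HSC against HPC-1 and from 0 to 2 for HPC-1 against HPC-2 after transplant. Same-numbered libraries of different populations at a time were little more alike than others. Over 94 pairs the median correlation of their deviations was 0.04 (-0.25 to 0.63), against -0.01 over 298 other pairs, and 25 were over 0.1. Sets of every 3 description numbers gave medians of 0.03 and -0.01. Whether such libraries share mice cannot be told from these values. With the replicate number as block, Cdk6 between HSC and HPC-2 at steady state had an adjusted p of 0.0879 (-1.29). RLE scaling moved the median of all genes from -0.01 to -0.16 for HSC against HPC-2 after transplant and from 0.40 to 0.18 at steady state. The 120 group means stayed within 1 SD between single libraries under both alternatives tried. That bar is wide for a mean: Ccne1 in steady-state HSC had a mean of 35.5 and an SD of 56.4 CPM, so any lower mean would pass. Ccne1, Ccnd1 and Cdkn1b were at 0 in 25, 17 and 13 of 95 libraries and at 3 reads or fewer in 25, 19 and 16, and whether depth accounts for these zeros was not tested.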
